A study of Mus musculus with 2 samples.

Results

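The genes described here are 44 genes of DNA replication and S phase, chosen by name for their roles in origin licensing, DNA synthesis, nucleotide supply and chromatin assembly, without the MCM2-7 helicase. A member was any of these whose name a gene probe of both arrays carried. All 44 members had such a probe, among 34841 gene names on the array, and 37 were bright enough to be tested, among 17112 gene names tested. Pancreatic islets of control mice (2 samples, labelled with the green dye Cy3) were compared with islets of knock-in mice carrying RbΔK7, a phosphorylation-resistant Rb (2 samples, labelled with the red dye Cy5). Each of the 2 arrays took 1 control and 1 mutant sample, from pairs grown and harvested independently. The labels give no strain, age or sex, no number of mice per sample and no description of the control genotype beyond its name. The islets had been freed with collagenase, picked by hand and frozen at once, and small amounts of total RNA were amplified before labelling.

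Rb holds E2F transcription factors at the promoters of replication genes in resting cells, and cyclin-dependent kinases release E2F by phosphorylating Rb, so that these genes are transcribed before and during S phase. Replication begins when the origin recognition complex, Cdc6 and Cdt1 load the MCM helicase, which Cdc45 and the GINS complex then activate. Primase and polymerase alpha start each strand, polymerases delta and epsilon extend it on the sliding clamp PCNA, and nucleases and a ligase join the pieces of the lagging strand. Most islet cells of an adult divide rarely.

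No gene spot was saturated. In replicates 1 and 2, 37.0% and 38.1% of gene spots were well above background in the control channel, against 41.0% and 48.2% in the mutant channel. The 2 arrays limit the precision of every value. No array had its dyes exchanged, so genotype and dye cannot be told apart at any 1 probe. All 12 islet endocrine markers were well above background in both channels of both arrays, as were all 11 acinar markers tested. A log2 ratio is that of the mutant over the control sample on 1 array, and a log2 level is the normalized brightness of 1 channel, which has meaning only within 1 probe. Neither a ratio nor a level tells fewer cells of a type from less RNA per cell.

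Most replication genes had higher signals in the mutant samples, by modest amounts, and 1 of them, the licensing factor gene Cdt1, passed the test. The median log2 ratio over the 37 tested members was 0.29 in replicate 1 and 0.42 in replicate 2, which are 1.22-fold and 1.34-fold, beside 0.020 and 0.023 over all 22266 tested probes. Ratios were above 0 on both arrays for 30 members (81.1%), against 32.3% of all tested probes, and below 0 on both for 0. The other 7, Rfc1, Prim2, Pold2, Gins3, Orc2, Rrm2 and Slbp, had opposite signs on the 2 arrays.

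With limma's moderated test and Benjamini-Hochberg adjustment over all tested probes, 1 member (2.7%) rose at an adjusted p under 0.05 and 0 fell, against 0.368% of all tested probes that rose and 0.0135% that fell. At an unadjusted p under 0.05 limma gave 18 members higher (48.6%) and 0 lower, against 8.16% of all tested probes higher. Adjusted p values of the 36 members that did not pass ran from 0.0753 to 0.981. Of the 37, 10 had a mean ratio over 0.5, against 4.43% of all tested probes. In 23 members (62.2%) both mutant levels lay above both control levels, against 21.9% of all tested probes, and in the other 14 the groups overlapped. The members share their samples and are not replicates of each other. Between the arrays, Pearson's r over the 37 members was 0.47 and Spearman's rho 0.48, as a description of genes measured in the same 4 samples.

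**Figure D1:**
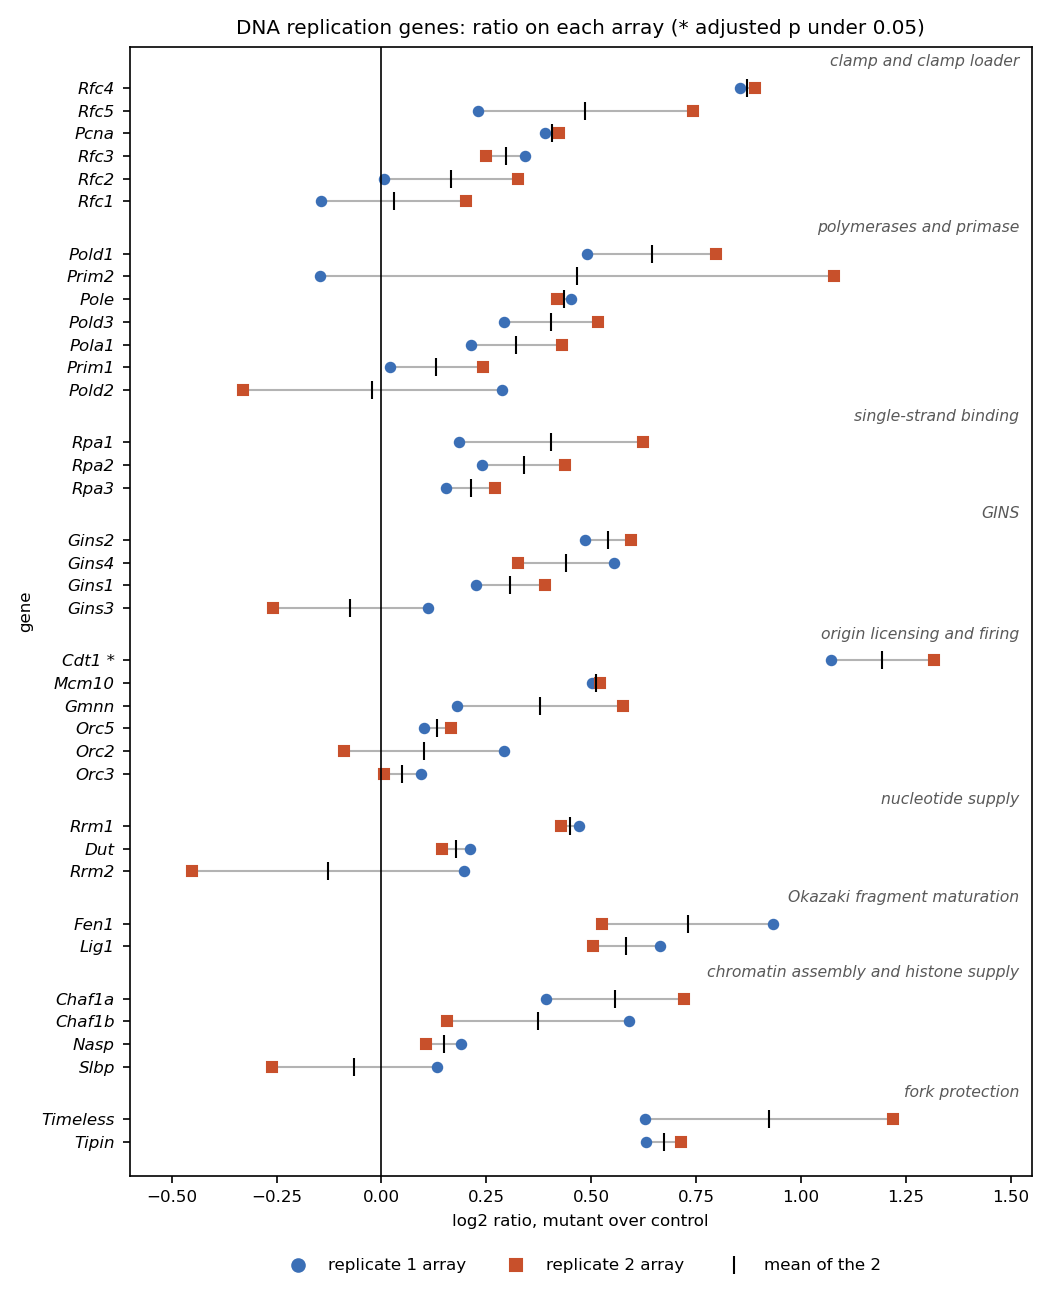
Log2 ratio of mutant over control for each of the 37 tested replication genes, grouped by role, in replicate 1 (circles) and replicate 2 (squares), with a bar at the mean of both. For 30 genes both points lie above 0, and Cdt1, marked with an asterisk, reaches 1.07 and 1.32.

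The promoters of the 4 members with the largest mean ratios at the offset of 50, of Pcna and of the member with the smallest ratio, Rrm2, are shown because E2F factors bind a short motif in many promoters of this kind. Windows of 300 bases, 250 before to 50 after an annotated start, came from RefSeq on GRCm38.p6, a different build from the mm9 positions given for the probes. Of the 44 members 36 matched a window by symbol, and for a gene with several windows the one with most matches is shown. The letters searched were TTCCCGC and 3 close forms of it, namely TTCGCGC besides the form TTGCCGC together with the form TTGGCGC, on both strands, where matches on opposite strands may overlap, and capitals below mark them. The windows lie at chr8:122567765-122568064, plus strand (Cdt1), chr10:128237816-128238115, plus strand (Timeless), chr16:23127681-23127980, minus strand (Rfc4), chr19:10203872-10204171, minus strand (Fen1), chr2:132253131-132253430, minus strand (Pcna), chr12:24708004-24708303, plus strand (Rrm2). Each runs 5′ to 3′ on the strand of its gene.
Cdt1: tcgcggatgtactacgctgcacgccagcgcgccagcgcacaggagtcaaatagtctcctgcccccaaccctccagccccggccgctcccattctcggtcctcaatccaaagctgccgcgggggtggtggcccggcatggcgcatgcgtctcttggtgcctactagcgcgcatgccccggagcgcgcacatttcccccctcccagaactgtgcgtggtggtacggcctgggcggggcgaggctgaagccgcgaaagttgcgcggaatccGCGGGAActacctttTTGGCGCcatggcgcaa
Timeless: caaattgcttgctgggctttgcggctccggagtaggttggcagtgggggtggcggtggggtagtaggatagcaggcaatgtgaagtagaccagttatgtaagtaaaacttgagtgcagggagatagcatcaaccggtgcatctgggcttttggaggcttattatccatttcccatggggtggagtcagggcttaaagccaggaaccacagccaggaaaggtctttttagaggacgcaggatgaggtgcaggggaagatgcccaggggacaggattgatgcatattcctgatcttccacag
Rfc4: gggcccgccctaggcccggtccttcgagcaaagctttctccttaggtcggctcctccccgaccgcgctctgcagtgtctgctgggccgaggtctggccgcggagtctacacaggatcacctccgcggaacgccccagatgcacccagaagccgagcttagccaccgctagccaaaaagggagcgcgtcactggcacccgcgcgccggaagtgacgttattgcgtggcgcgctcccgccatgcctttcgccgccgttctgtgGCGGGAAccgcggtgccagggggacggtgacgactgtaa
Fen1: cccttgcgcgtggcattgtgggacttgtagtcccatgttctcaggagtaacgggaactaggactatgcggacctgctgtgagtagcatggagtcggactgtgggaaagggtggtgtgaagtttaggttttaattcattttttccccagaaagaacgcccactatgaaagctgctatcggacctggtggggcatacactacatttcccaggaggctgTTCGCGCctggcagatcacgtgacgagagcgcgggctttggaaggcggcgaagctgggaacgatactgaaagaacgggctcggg
Pcna: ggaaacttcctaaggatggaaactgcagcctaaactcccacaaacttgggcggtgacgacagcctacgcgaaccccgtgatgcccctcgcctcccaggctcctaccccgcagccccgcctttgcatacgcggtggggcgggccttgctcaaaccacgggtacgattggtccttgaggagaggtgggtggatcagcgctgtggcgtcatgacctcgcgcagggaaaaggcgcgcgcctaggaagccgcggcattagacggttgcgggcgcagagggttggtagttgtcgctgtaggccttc
Rrm2: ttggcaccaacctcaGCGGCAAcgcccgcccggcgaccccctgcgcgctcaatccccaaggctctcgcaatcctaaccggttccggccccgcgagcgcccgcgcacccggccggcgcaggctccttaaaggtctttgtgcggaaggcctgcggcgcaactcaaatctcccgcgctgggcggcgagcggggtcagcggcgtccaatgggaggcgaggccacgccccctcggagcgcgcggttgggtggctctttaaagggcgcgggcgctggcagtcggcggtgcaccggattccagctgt

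A match was found in a window of 21 of the 36 members (58.3%), and of 18 of the 29 tested members with a window (62.1%). It was found for 18.7% of the 9104 tested gene names with a window and for 10.9% of all 27025 genes in the table. Among other replication genes, 26 of 53 related genes (49.1%) and 4 of 5 MCM2-7 genes held a match. Base composition was not matched between these groups. The 18 tested members with a match had a median mean ratio of 0.36 (from -0.13 to 1.19), and the 11 without had 0.18 (from -0.064 to 0.92), ranges that overlap over most of their length. Cdt1 had matches that begin 19 and 34 bases into the transcript, counting its start as base 1. Rfc4 had one at base 12, and Fen1 one at base -34, counted back from the start. The other of the 2 windows of Fen1, at chr19:10204344-10204643, held no match. Timeless and Pcna had none, which says only that these letters are not in these windows, and Rrm2 had one far upstream at base -235. With only the forms TTCGCGC and also TTGGCGC, 8 of the 36 members had a match.

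**Figure D2:**
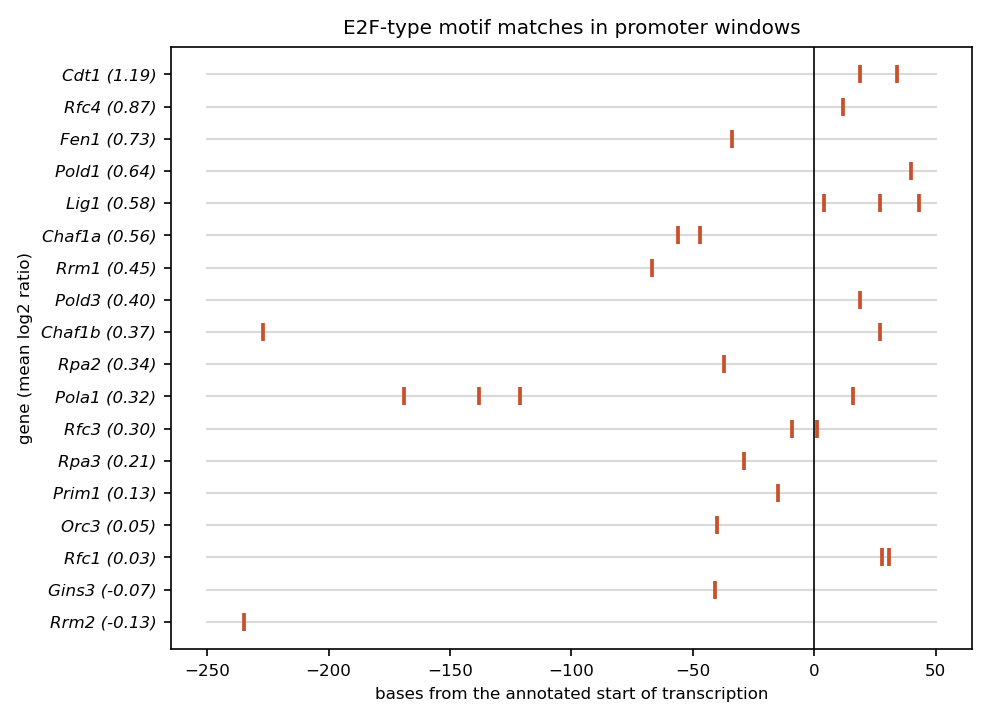
Positions of the E2F-type motif matches (red bars) along promoter windows from 250 bases before to 50 bases after the annotated start (vertical line), for the 18 tested genes with a match, ordered by mean log2 ratio (in brackets). Matches from several annotated starts of 1 gene are drawn on 1 line. Matches lie near the start for genes at both ends of the order, and that of Rrm2, at the bottom, is the most distant.

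Among the origin licensing and firing genes, Cdt1, which loads the MCM helicase together with Cdc6, rose 2.29-fold. In replicates 1 and 2 it stood at log2 levels of 7.42 and 7.93 in the controls against 8.49 and 9.24 in the mutants, with no overlap. The ratios were 1.07 and 1.32, a mean of 1.19 ± 0.17 (SD, n = 2; adjusted p = 0.0469 by limma), and the 1 probe lies at chr8:125096893-125096952 (mm9). The call sits close to the threshold. The limma adjusted p ran from 1.44e-06 to 0.725 over 11 other settings. The lowest came with median centring, which called 29.9% of all tested probes higher. Of these settings 6 lost the call, among them Agilent's processed signals (mean 1.64, limma adjusted p = 0.228) and separate channels with the replicate block (limma adjusted p = 0.383). Both of these named settings called 0 of the 22266 tested probes. Gmnn encodes geminin, which binds Cdt1 and blocks a second round of licensing. It had levels of 6.67 and 6.65 in the controls and 6.85 and 7.23 in the mutants, with ratios of 0.18 and 0.58 (limma adjusted p = 0.445). Its control channel was well above background on 1 array, and another probe of Gmnn, too dim to be tested, had 0.091 and -0.042.

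Mcm10, a fork factor that helps to activate the loaded helicase, had nearly equal ratios of 0.50 and 0.52 (mean 0.51 ± 0.013, SD, n = 2; adjusted p = 0.245 by limma). The genes of the origin recognition complex lay lowest in this group. Orc3 had levels of 9.15 and 9.13 in the controls and 9.25 and 9.14 in the mutants, with ratios of 0.094 and 0.0061 and a mean of 0.050 ± 0.062 (SD, n = 2; adjusted p = 0.935 by limma). Orc5 had ratios of 0.10 and 0.17, and Orc2 of 0.29 and -0.09, and in all 3 the control and mutant samples overlapped. The licensing factor Cdc6 and both parts of the origin-firing kinase, Cdc7 and its activator Dbf4, were too dim to be tested.

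**Figure D3:**
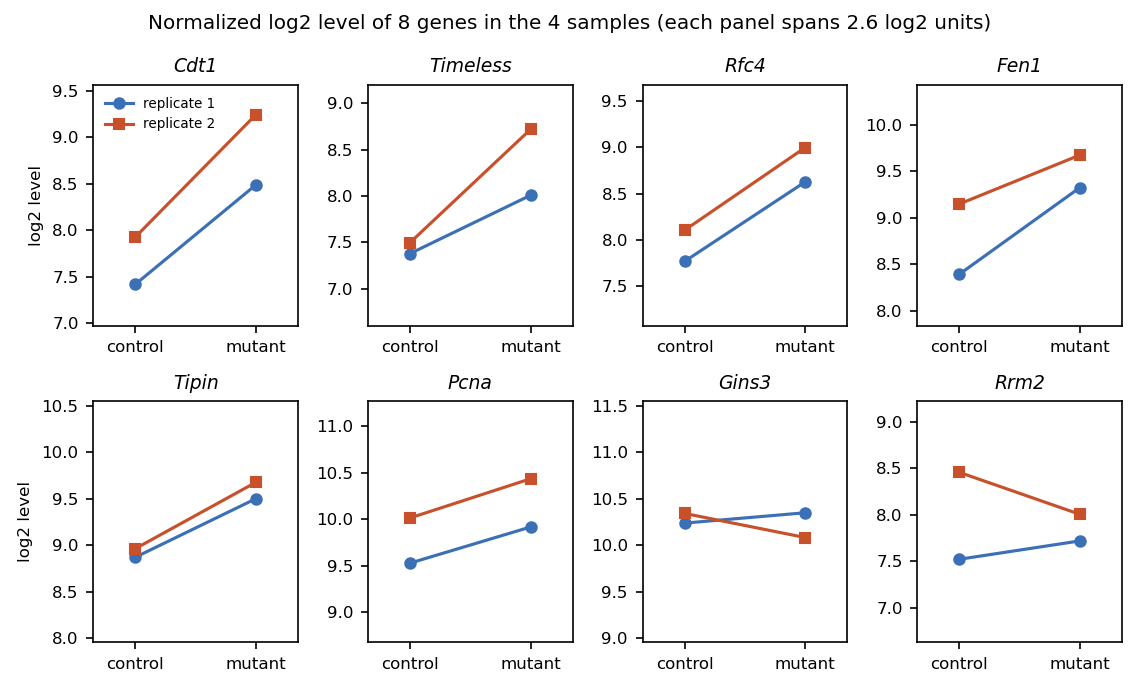
Normalized log2 levels of 8 replication genes in the control and mutant samples of replicate 1 (circles) and replicate 2 (squares), with a line joining the samples of 1 array and the same span of levels in every panel. In Cdt1, Timeless, Rfc4, Fen1 and Tipin both mutant samples lie above both controls, in Pcna the control sample of replicate 2 lies above the mutant sample of replicate 1, and in Gins3 and Rrm2 the lines of the 2 arrays slope in opposite directions.

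The 4 GINS genes encode the subunits of 1 complex that is part of the active helicase. Gins2 had levels of 6.24 and 6.59 in the controls and 6.73 and 7.19 in the mutants, ratios of 0.48 and 0.59 and a mean of 0.54 ± 0.077 (SD, n = 2; adjusted p = 0.228 by limma). On both arrays its control channel, like that of Gins1, was not well above background. The mutant signal was put at least 1.37-fold brighter for Gins2 and at least 1.21-fold for Gins1, a bound open to dye bias. On each array it was set against the dimmest probe well above background, or against the gene's own control level where that was higher. In the latter case it is the plain ratio of that array. Gins4 had ratios of 0.55 and 0.33, and Gins1 of 0.22 and 0.39. In these 3 both mutant samples lay above both controls. Gins3 had levels of 10.24 and 10.34 in the controls and 10.35 and 10.08 in the mutants, which overlap, with ratios of 0.11 and -0.26 and a mean of -0.074 ± 0.26 (SD, n = 2; adjusted p = 0.907 by limma).

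Of the polymerase and primase genes, that of the catalytic subunit of polymerase delta, Pold1, had the largest mean ratio with the offset of 50. With Agilent's processed signals Prim2 (1.59) and Pole (1.08) lay above Pold1 (0.74). The levels of Pold1 were 7.64 and 7.78 in the controls and 8.13 and 8.58 in the mutants, with ratios of 0.49 and 0.80 and a mean of 0.64 ± 0.22 (SD, n = 2; adjusted p = 0.189 by limma). The accessory subunit gene Pold2 had the smallest, with levels of 7.17 and 7.65 in the controls and 7.46 and 7.32 in the mutants and ratios of 0.29 and -0.33 (mean -0.022 ± 0.44, SD, n = 2; adjusted p = 0.981 by limma). Pold3, a further subunit gene, had 0.29 and 0.52, and differences between the subunit genes were not tested. Pole, the catalytic subunit of polymerase epsilon, had ratios of 0.45 and 0.42, although its control level of 7.59 in replicate 2 lay above the mutant level of 7.25 in replicate 1. Other probes of Pole, too dim to be tested, had -0.22 and -0.16, and 0.028 and 0.19. Pola1, the catalytic subunit of polymerase alpha, had 0.21 and 0.43. Of the primase genes, Prim1 had 0.019 and 0.24, and Prim2 had -0.15 and 1.08, the widest gap between the 2 arrays of any member. Another probe of Prim2, too dim to be tested, had -0.12 and 0.040. Pola2 and Pole2, which encode second subunits of polymerases alpha and epsilon, were not tested.

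In the clamp and clamp loader group, Rfc4 had the largest mean ratio among the 5 subunit genes of replication factor C, which opens the PCNA ring and sets it on DNA. Its levels were 7.77 and 8.11 in the controls and 8.63 and 9.0 in the mutants, so the groups did not overlap. The ratios of 0.85 and 0.89 gave a mean of 0.87 ± 0.024 (SD, n = 2; adjusted p = 0.0753 by limma), 1.83-fold, on a probe at chr16:23114024-23114083 (mm9). A second, dimmer probe of Rfc4 had 0.17 and 0.48. The large subunit gene Rfc1 lay at the other end, with levels of 8.48 and 8.43 in the controls and 8.34 and 8.63 in the mutants and ratios of -0.14 and 0.20 (mean 0.029 ± 0.25, SD, n = 2; adjusted p = 0.967 by limma). Rfc5 had ratios of 0.23 and 0.74 on its brighter probe and 0.069 and 0.25 on another, Rfc3 of 0.34 and 0.25 and Rfc2 of 0.0054 and 0.33. Pcna, the clamp itself and a common marker of S phase, had ratios of 0.39 and 0.42 (mean 0.41 ± 0.023, SD, n = 2; adjusted p = 0.336 by limma). Its levels were 9.53 and 10.01 in the controls and 9.91 and 10.43 in the mutants, so the 2 controls differed by more than this ratio.

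The genes of replication protein A, the trimer that coats single-stranded DNA, had ratios above 0 on both arrays and no overlap between control and mutant levels. Rpa1, the large subunit, had levels of 10.51 and 10.35 in the controls and 10.69 and 10.97 in the mutants, with a mean ratio of 0.40 ± 0.31 (SD, n = 2; limma adjusted p = 0.426), and a second probe had 0.14 and 0.49. Rpa3, the smallest subunit, had levels of 8.44 and 8.32 in the controls and 8.59 in both mutants, a mean of 0.21 ± 0.083 (SD, n = 2; adjusted p = 0.625 by limma). Rpa2 had ratios of 0.24 and 0.44.

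Both genes that finish the lagging strand had mean ratios over 0.5. Fen1, the nuclease that trims the flap of each fragment, had levels of 8.39 and 9.15 in the controls and 9.32 and 9.68 in the mutants, with ratios of 0.93 and 0.53 (mean 0.73 ± 0.29, SD, n = 2; adjusted p = 0.168 by limma). Lig1, the ligase that seals the nick, had levels of 8.65 and 9.07 in the controls and 9.32 and 9.57 in the mutants, with ratios of 0.66 and 0.50 (mean 0.58 ± 0.11, SD, n = 2; adjusted p = 0.196 by limma). In both genes the mutant samples lay above the controls, though the lower mutant exceeded the higher control by less than the controls differed from each other.

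Genes of nucleotide supply had the smallest median of the mean ratios of any role, 0.18 over 3 tested genes. Rrm1 and Rrm2 encode the subunits of ribonucleotide reductase, which makes deoxynucleotides. Rrm1 had levels of 7.64 and 8.12 in the controls and 8.11 and 8.55 in the mutants (ratios 0.47 and 0.43, mean 0.45 ± 0.029, SD, n = 2; adjusted p = 0.298 by limma). Rrm2, the subunit made mainly in S phase, had levels of 7.52 and 8.46 in the controls and 7.72 and 8.0 in the mutants (ratios 0.20 and -0.45, mean -0.13 ± 0.46, SD, n = 2; adjusted p = 0.865 by limma). Its controls differed from each other by more than any mutant differed from its control. Dut, which keeps uracil out of DNA, had ratios of 0.21 and 0.15. Tyms and Tk1, which make thymidine nucleotides, were not tested.

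Among the chromatin genes, Chaf1a and Chaf1b encode subunits of chromatin assembly factor 1, which deposits histones behind the fork. Chaf1a had levels of 6.53 and 6.74 in the controls and 6.92 and 7.46 in the mutants, with ratios of 0.39 and 0.72 (mean 0.56 ± 0.23, SD, n = 2; adjusted p = 0.259 by limma), and its control channel was above background on 1 array. Chaf1b had 0.59 and 0.16 on its brightest probe, 0.13 and 0.54 on a probe that overlaps it in the genome, and -0.19 and 0.11 on 1 more probe elsewhere in the gene. The histone chaperone gene Nasp had ratios of 0.19 and 0.11, while a probe of it too dim to be tested had -0.17 and -0.17. Slbp, which binds the ends of histone mRNAs, had levels of 6.66 and 7.06 in the controls and 6.79 and 6.80 in the mutants (ratios 0.13 and -0.26, mean -0.064 ± 0.28, SD, n = 2; adjusted p = 0.925 by limma), while its other probe had 0.17 and 0.14. The 2 partners that protect the fork, Timeless and Tipin, both had mean ratios over 0.5 and no overlap. Timeless had levels of 7.38 and 7.5 in the controls and 8.01 and 8.72 in the mutants, with ratios of 0.63 and 1.22 (mean 0.92 ± 0.42, SD, n = 2; adjusted p = 0.138 by limma). Another probe of Timeless, too dim to be tested, had 0.045 and 0.17. Tipin had levels of 8.87 and 8.96 in the controls and 9.50 and 9.68 in the mutants, with ratios of 0.63 and 0.71 (mean 0.67 ± 0.059, SD, n = 2; adjusted p = 0.144 by limma).

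Several values rest on dim signals. Of the 37 tested members 26 were well above background in both channels on both arrays, 8 were above it on 1 array in the control channel, and 3 (Gins1, Gins2 and Orc5) on neither. Such a gene passed the filter through its mutant channel and was the more likely to have a positive ratio. When only probes above background in both channels of both arrays were tested, 27 members had values, of which 23 had ratios above 0 on both arrays and 0 below 0 on both, with a median mean ratio of 0.37, while 29.6% of all probes tested that way were above 0 on both. The offset of 50 draws the ratios of dim spots towards 0. With an offset of 0 instead, Gins2 had a mean ratio of 1.28, Gins1 0.76, Chaf1a 1.04 and Pole 0.67. Agilent's processed signals have no such offset but differ in other steps too, and the part of each step was not tested. They gave larger mean ratios for every member dim in the control channel, though Orc2 (0.32), Orc5 (0.20) and Slbp (-0.056) stayed low. Members well above background in both channels on both arrays went either way. Rpa2, which passed that line with low control levels of 6.83 and 6.86, went from 0.34 to 0.63. Pcna, with control levels of 9.53 and 10.01, went from 0.41 to 0.37. Gins2 went from 0.54 to 2.04, above the 1.64 of Cdt1, Gins1 from 0.31 to 1.49 and Chaf1a from 0.56 to 1.43. Prim2 went from 0.46 to 1.59, Mcm10 from 0.51 to 1.10, Pole from 0.44 to 1.08, Gmnn from 0.38 to 0.86 and Rfc3 from 0.30 to 0.78. With those signals 0 members were called by limma. At an unadjusted p under 0.05 limma gave 15 members, and 2351 of all 22266 tested probes, in either direction. The order of the members by mean ratio thus differed between these settings. The 7 untested members, Pola2, Pole2, Cdc6, Cdc7, Dbf4, Tyms and Tk1, carried probes with mean ratios from -0.032 to 0.33. On both arrays their control channels were not well above background, apart from 1 probe of Tk1 on 1 array. Among the tested members the controls of replicates 1 and 2 differed by more than the mean ratio in 13.

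Further genes of replication, from a list of 67 drawn up with earlier results of these data known, had smaller medians. Of the 50 tested with limma 0 passed in either direction (10 at an unadjusted p under 0.05, 9 of them higher), 26 had ratios above 0 on both arrays and 9 below, with medians of 0.10 and 0.13. The largest mean ratios were those of Tonsl, a partner of the replication-coupled repair complex (0.52 and 1.03), of Topbp1, which helps to fire origins and to signal stalled forks (0.59 and 0.76), and of Rnaseh2c, a subunit of an RNase that removes ribonucleotides from DNA (0.80 and 0.33). The smallest were those of Mthfd1, a folate enzyme (-0.47 and -0.26), Atrip, the partner of the checkpoint kinase ATR (-0.20 and -0.42), and Hus1, part of a checkpoint clamp (-0.20 and -0.27). The 6 genes of the MCM2-7 helicase, which Cdt1 loads, had medians of 1.34 and 1.18, and 4 of them rose. Of 10 tested mitosis genes 1 was above 0 and 7 below 0 on both arrays, with medians of -0.045 and -0.22, 0 passed with limma, and 0 had an unadjusted p under 0.05. These comparisons share the same 4 samples, and the differences between the groups of genes were not tested.

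**Figure D4:**
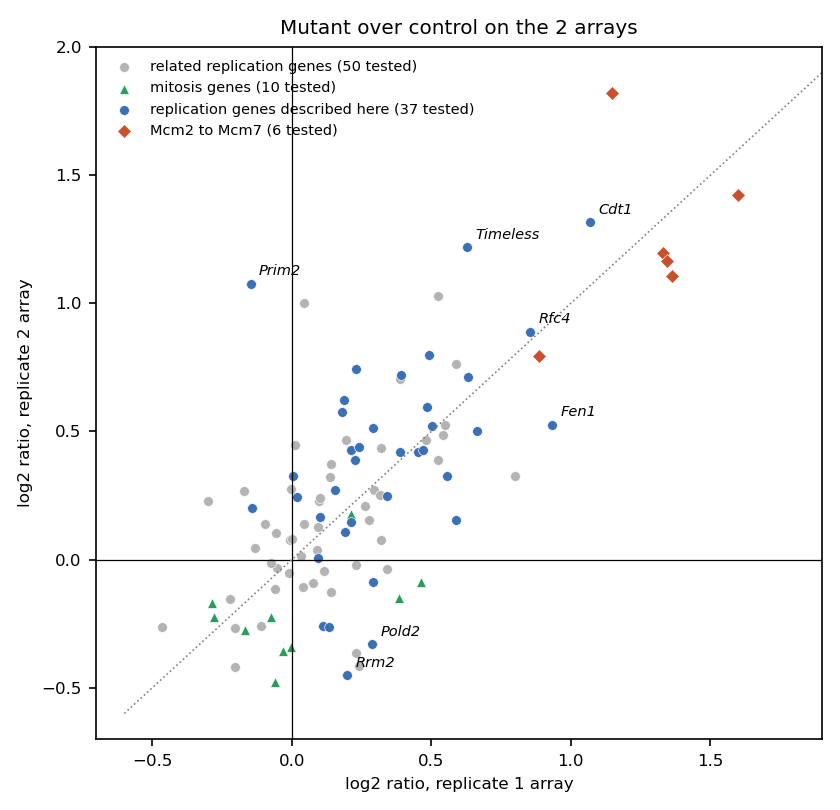
Log2 ratio on the replicate 2 array against that on the replicate 1 array for the 37 tested replication genes (blue), 50 related genes (grey), the MCM2-7 genes (red) and 10 mitosis genes (green), with a dotted line of equal ratios. The MCM genes lie at the upper right, most replication genes lie above 0 on both axes and the mitosis genes lie around and below 0, while Prim2 and Pold2 lie in quadrants where the 2 arrays have opposite signs.

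Markers of other cells differed between the same samples. All 10 stromal markers had ratios above 0 on both arrays and 6 of them rose, with medians of 2.34 and 1.42, and their summed log2 level was 11.25 and 13.27 in the controls and 13.61 and 15.03 in the mutants of replicates 1 and 2. The summed level of the replication members had the same order, 13.46 and 13.64 in the controls and 13.80 and 14.03 in the mutants. So had that of the MCM2-7 genes (10.51 and 11.09, then 11.80 and 12.31) and that of the related replication genes (14.77 and 14.78, then 14.88 and 15.01). The control of replicate 2 exceeded that of replicate 1 in 29 of the 37 members, and the share of all tested probes with this order was not counted. Of 9 endothelial markers 7 were above 0 on both arrays, and Vwf among them rose (3.02-fold, adjusted p = 0.0297 by limma). Only 1 was below 0 on both, Kdr, with ratios of -0.28 and -0.88. Of 8 tested duct markers Spp1 and Tspan8 rose (adjusted p = 0.0448 and 0.0297 by limma). Endothelial markers had medians of 0.37 and 0.58 (summed levels of 13.36 and 13.44 in the controls, 13.40 and 13.53 in the mutants), duct markers 0.37 and 0.40 (13.06 and 13.57, then 13.43 and 13.96) and leukocyte markers 0.062 and 0.15 (13.35 and 13.12, then 13.19 and 13.20). A summed level is taken across probes, so the brightest probe weighs most in it. In the control of replicate 1 this was Kdr (12.60) among endothelial and Itgam (12.84) among leukocyte markers. Acinar markers had medians of 0.43 and -5.29, with summed levels of 19.89 and 21.16 in the controls and 20.27 and 16.50 in the mutants. Islet endocrine markers had medians of -0.14 and 0.25. With the acinar and Reg genes left out of the fit, but not of the loess normalization, Cdt1 was still the 1 member called (limma adjusted p = 0.0375). The ratios of the members were the same by construction, so this setting says nothing of acinar cells in the samples. The part of stromal or other cells in the ratios of the replication genes was not tested.

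The direction of the members' median held in every setting tried, while the number of calls did not. It was above 0 in all 11 other settings, though not all of them could move it. Those that changed only the prior, left out acinar genes or fitted separate channels kept the same ratios and so the same median of 0.38. Processed signals and the series matrix held nearly the same ratios. Medians over the 11 settings ran from 0.33 with no filter on dim probes to 0.93 when arrays were centred on their median instead of fitted with loess. That centring put all tested probes at a median of 0.62. Calls among the members ran from 0 to 25 over these settings. The 25 of 37 came with median centring, which also called 29.9% of all tested probes higher. With a trended and robust prior limma called 7 of 37 members, Cdt1, Timeless, Rfc4, Fen1, Tipin, Pold1 and Gins2, the last of which passed the filter through its mutant channel alone, and 2.31% of all tested probes higher.

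**Figure D5:**
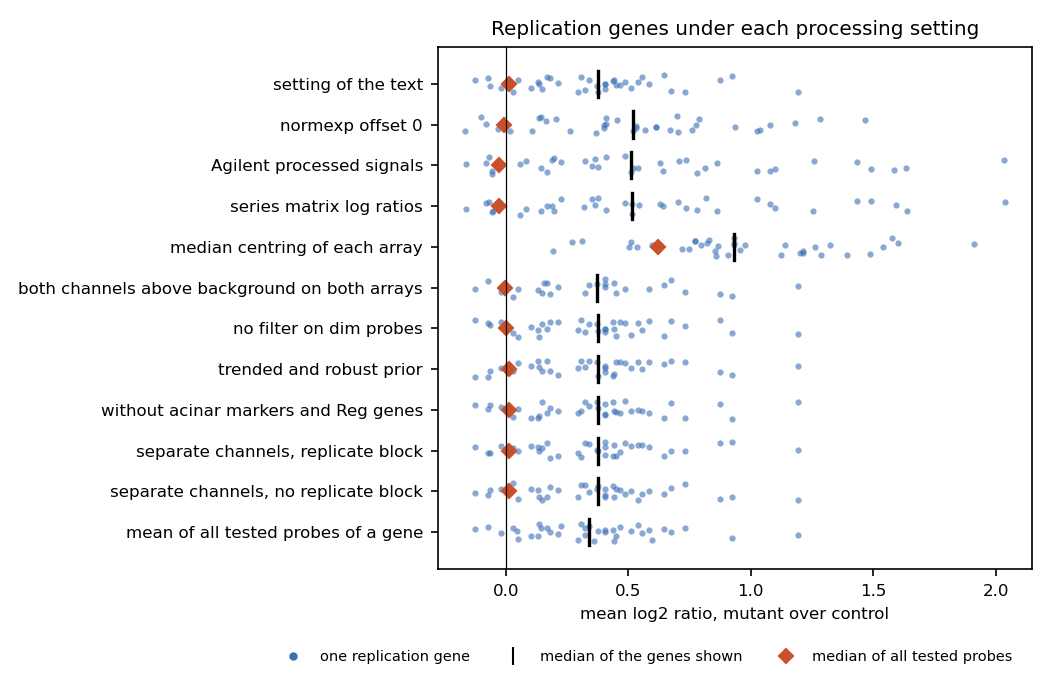
Mean log2 ratio of each tested replication gene (blue points) under the setting of the text and 11 others, with the median of these genes (black bar) and of all tested probes (red diamond, not drawn for the averaged probes). Each row draws the 37 tested members only, or the 27 with both channels above background, so without a filter its bar differs from the median over all 44 members. The black bars lie right of the diamonds in each row that shows both, and with median centring of each array both are shifted to the right.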

How the data were processed

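Islet RNA of 2 control and 2 mutant samples was measured on 2 two-colour Agilent arrays whose scans were read, according to the submitters' processing notes, by Agilent Feature Extraction 10.7.3.1. The deposited intensity values are spot means, local background medians and processed signals, which the scanner software had detrended and dye-normalized, per the file headers. The deposited log10 ratios are of red over green processed signals, per the file headers, and the authors' series matrix holds the same values (largest difference 0, column medians 0 and 0).

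With limma 3.58.1 under R 4.3.3, normexp and an added offset of 50 corrected the background of spot means, which draws dim ratios towards 0. Loess (span 0.3, control spots at weight 0) then normalized log2 ratios within arrays. Loess assumes that most probes of a given brightness are alike in both channels. Of 59305 gene spots per array, 4 non-uniform ones on each were left out, which left 55673 probes, and 22266 were tested because 1 channel or the other was well above background on both arrays. The 2 ratios were tested against 0, two-sided, with limma's lmFit and eBayes across all these probes and Benjamini-Hochberg adjustment at 0.05. The array is the pairing. Nothing says how many mice or extractions lie behind a sample, and with 1 residual degree of freedom the p-values rest mainly on the spread pooled over probes (prior degrees of freedom 4.90, prior SD 0.204), which may be technical. Levels came from quantile normalization of average intensities. The limma fit was tested on simulated data.

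The brightest tested probe stood for a gene. All members were to be named, with full statistics for those past the threshold and for the largest and smallest mean ratio of each role, and related genes by the threshold or the 3 largest and smallest. Genes outside the members were also matched through a synonym of 1 gene in RefSeq's GRCm38.p6 table. Members, lists and rules were chosen with earlier results of these data known. Alternatives covered the offset, the signals, normalization, filters, prior, probe choice, acinar genes, separate channels and each replicate. Positions within exons, introns or UTRs and protein sequences were not analysed here.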

Additional observations from a re-analysis of the deposited data

How the results depend on the processing

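Against the 1 replication member called, limma called 0 with an offset of 0 (17 at an unadjusted p under 0.05), with Agilent's processed signals or the series matrix ratios (15 each), with the mean of all tested probes of a gene (16), and in fits of separate channels with the replicate block (16) or without it (11). The unadjusted counts take either direction. Of all 22266 tested probes, 2528 had an unadjusted p under 0.05 by limma in the setting of the text and 2471 with an offset of 0. There were 2351 with processed signals, 2355 with the series matrix, and 2244 and 1497 in separate channels with and without the block. Limma called 2 of 44 members with no filter on dim probes (0.58% of all probes higher), 7 with a trended and robust prior and 25 with median centring. Over all probes these settings gave 0 calls (averaged probes were not counted), 323 higher and 32 lower without the filter, 515 and 49 with the other prior and 6664 and 71 with median centring, against 82 and 3. Calls among the 50 related genes went from 0 to 2 with that prior and to 24 with median centring. The members' median of 0.38 became 0.52 with an offset of 0, 0.51 with processed signals, 0.51 with the series matrix and 0.93 with median centring, and lay between 0.29 and 0.42 when 1 replicate was left out. Genes near 0 turned sign: Rfc1 to -0.020, -0.068 and -0.069 with the offset of 0, processed signals and the series matrix. With median centring, which moved the median of all tested probes to 0.62, Pold2 became 0.51, Gins3 0.80, Rrm2 0.53 and Slbp 0.27, so their signs say nothing apart from that shift and all but Gins3 lay below it. Slbp became 0.16 with both channels above background, where its dimmer probe stood for it, and 0.046 with averaged probes. The motif count fell from 21 to 8 with 2 of the 4 motifs. The cause of the shift with median centring was not tested. Dim signals limit Gins1, Gins2 and Orc5 most, and 1 array alone leaves no residual spread for a test.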

Other observations

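Besides E2F-type letters, promoters of cell cycle genes often carry CCAAT, which NF-Y binds, and the letters TTTGAA, a core of the element that represses mitosis genes in resting cells. In the 300-base RefSeq windows, searched on both strands, CCAAT was found for 17 of 36 replication members (47.2%), all 17 of them among the 29 tested members with a window (58.6%), for 15 of 17 mitosis genes (88.2%), for 42.5% of tested gene names with a window and for 41.1% of all genes in the table. TTTGAA was found for 6 of 36 members (16.7%), 4 of the 29 tested members (13.8%), 12 of 17 mitosis genes (70.6%), 13.9% of tested gene names and 20.2% of all genes. E2F-type letters were found for 3 of these 17 mitosis genes (17.6%). These shares are descriptions of letters in windows and were not tested.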
